A study of Argyrosomus regius with 12 samples.

Results

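The comparison of spleens from lipopolysaccharide-treated and control fish at 24 h rests on 6 of the 12 RNA libraries of a study of young meagre (Argyrosomus regius), a sea fish. The member libraries follow from the labels, as the 3 LPS 24 h pools and the 3 PBS 24 h pools. Fish of 22 g were kept at 22 °C and injected into the body cavity. The LPS 24 h group received lipopolysaccharide (LPS) from Photobacterium damselae subsp. piscicida, strain Lg41/01, at 10 µg per g of fish, and the PBS 24 h group received phosphate-buffered saline (PBS). The LPS 4 h and PBS 4 h groups had the same injections and were sampled at 4 h. Each library was made from the spleens of 4 fish pooled together, so a group of 3 pools stands for 12 fish, and the response of a single fish cannot be seen. The study had no uninjected group, so the effect of the injection itself is part of every PBS value.

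LPS is the main component of the outer membrane of Gram-negative bacteria, and animals use it as a sign of infection. In mammals it is sensed through a Toll-like receptor complex that switches on genes of inflammation and defence, whereas in many bony fish that route is less well understood and the doses needed to evoke a response are high. The spleen is one of the main immune organs of bony fish. It filters blood, holds macrophages, lymphocytes and many red blood cells, and takes up bacterial material from the circulation.

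The identifiers come from an assembly made without a genome and are not paired with gene names in the files. No cell type marker could therefore be looked up, and the spleen label was not checked against markers. Only 4 identifiers are printed. They were chosen by the size of the change among genes that passed the test and whose LPS and PBS pools did not overlap. Isoform counts were added up per Trinity gene, the unit into which the assembler groups transcripts that share sequence. The total count per 24 h pool was 32820406, 33519016 and 38888446 under PBS and 34386669, 37133770 and 56556752 under LPS, in the order of replicates 1 to 3. Between 91.2% and 95.1% of the 42480 Trinity genes had at least 1 count in a 24 h pool. Across genes, log2 levels correlated between 0.955 and 0.967 within the 24 h groups and between 0.922 and 0.957 between them. A library of the other time point, LPS 4 h replicate 2, stood apart from its group in genes described further on, and it enters here through the shared estimate of spread. The median SD of log2 CPM over tested genes was 0.448 in the LPS 4 h group, against 0.320 in LPS 24 h, 0.335 in PBS 24 h and 0.268 in PBS 4 h.

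At 24 h, 970 Trinity genes were higher and 89 lower in LPS than in PBS spleens, out of 32542 tested. The called genes made up 3.25% of those tested, 2.98% higher and 0.273% lower, and 91.6% of the calls were higher under LPS (edgeR quasi-likelihood test, Benjamini-Hochberg adjusted p below 0.05). The genes that rose showed a median log2 fold change of 1.30 (quartiles 1.03 and 1.80). For those that fell the median was -1.31 (quartiles -1.81 and -0.95). Over all tested genes the median was -0.08. In whole spleen, a change in the number of cells of a type and a change in RNA per cell cannot be told apart.

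Most called changes were between 2-fold and 4-fold. Among the genes that rose, 219 changed less than 2-fold, 568 between 2-fold and 4-fold, 130 between 4-fold and 8-fold and 53 at least 8-fold. Among the genes that fell, the same classes held 24, 50, 12 and 3 genes. A single called gene had 0 counts in every PBS 24 h pool. Its LPS mean was at least 36.9-fold higher when each control library was set to a floor of 3 counts. By its mean, its class thus did not depend on the fitted value. Its LPS 24 h pools held 11, 227 and 154 counts, so the bound is for the mean and does not hold for replicate 1. When a change beyond 2-fold was itself the tested hypothesis, 9 genes were called, all higher under LPS.

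**Figure D1:**
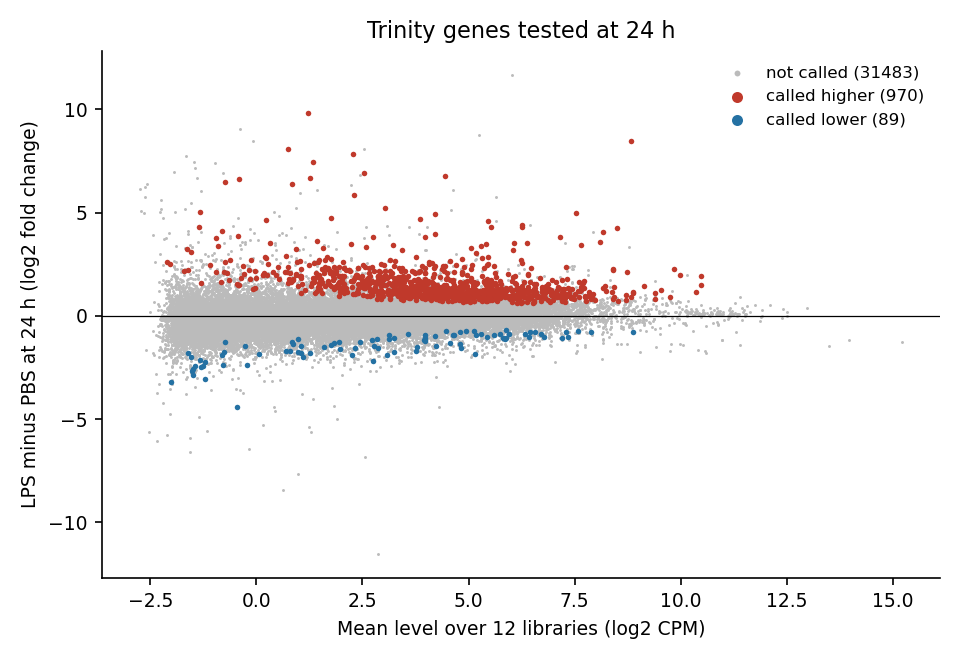
Each point is 1 of the 32542 tested Trinity genes, with its mean level over 12 libraries (log2 CPM) on the horizontal axis and its log2 fold change between LPS and PBS at 24 h on the vertical axis. The 970 genes called higher (red) spread over nearly the whole range of levels, while the 89 called lower (blue) are few at every level.

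The number of calls depended on single pools. It was 527 without PBS 24 h replicate 1, 29 without PBS 24 h replicate 2 and 307 without PBS 24 h replicate 3. It was 316 without LPS 24 h replicate 2 and 169 without LPS 24 h replicate 3. Without LPS 24 h replicate 1 it was larger, at 1269 (1175 higher and 94 lower). Among pools of the other time point, it was 670 without PBS 4 h replicate 3 and 2059 (1736 higher and 323 lower) without LPS 4 h replicate 2. In each of these fits all 1059 genes kept the sign of their change. Their LPS and PBS pools at 24 h did not overlap, so the kept sign was largely set by the choice. DESeq2 called 2755 genes, of which 75.6% were higher, and limma-voom called 1062, and 964 genes were called by all 3 tools.

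The pools themselves separated more often than the test called. In 8616 genes (26.5% of those tested) the 3 LPS pools lay entirely above or entirely below the 3 PBS pools at 24 h, 4795 above (14.7%) and 3821 below (11.7%). All 970 genes called higher and all 89 called lower were among them. An unadjusted p below 0.05 was reached by 6227 genes (19.1%), 3417 higher and 2810 lower. The lean towards higher levels was therefore large among the calls and small in these wider sets.

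Calls became more frequent with the level of the gene, up to a point. CPM is the count of a gene scaled to a common library total. It follows the share of sequenced fragments up to a scaling factor for each library (TMM). It is not adjusted for transcript length, so it does not rank transcripts of different genes. Of 8319 genes with a mean below 1 CPM, 36 were called higher and 20 lower. Of 12457 genes from 1 to 10 CPM, 258 were higher and 28 lower, and of 10369 genes from 10 to 100 CPM, 561 were higher and 33 lower. Of 1252 genes from 100 to 1000 CPM, 111 (8.87%) were higher and 8 (0.639%) lower, the highest shares of the 5 classes. Of 145 genes above 1000 CPM, 4 were higher and 0 lower.

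Genes at high levels also leaned upwards without regard to the test. The share of genes with a positive fold change was 37.4% below 1 CPM, 40.8% from 1 to 10 CPM, 51.4% from 10 to 100 CPM, 63.0% from 100 to 1000 CPM and 77.9% above 1000 CPM. The median standard error of the log2 fold change fell from 0.52 in the lowest class to 0.24 in the class from 100 to 1000 CPM, and was 0.31 above 1000 CPM. The called genes that rose went from a median of 12.1 CPM in PBS pools to 30.2 CPM in LPS pools. Those that fell went from a median of 11.2 to 4.55 CPM.

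The LPS pools differed in the size of the change in called genes. Set against the average PBS 24 h level, the 970 genes that rose had a median log2 change of 0.91 in LPS 24 h replicate 1, 1.34 in replicate 2 and 1.37 in replicate 3. At least a 2-fold rise was seen for 390 of them (40.2%) in replicate 1, for 774 (79.8%) in replicate 2 and for 809 (83.4%) in replicate 3. Over all tested genes these shares were 2.91%, 5.02% and 4.80%. The 970 genes were called on these same pools, so their higher shares are partly set by the choice. Replicate 1 was the lowest of the 3 LPS pools in 846 of the 970 genes (87.2%), against 30.7% of all tested genes. For the 89 genes that fell, the medians were -0.83, -1.06 and -1.13 in the same order. Replicate 1 had the smallest fall in 69 of them (77.5%), and was the highest LPS pool in 10457 of all 32542 tested genes.

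Of the 3 LPS 24 h pools, replicate 1 also stood nearest to the controls in other respects. By a chi-square test of counts, its difference from PBS 24 h replicate 1 (55.4 per degree of freedom) was smaller than that of any other pair of 24 h pools, pairs within groups included. From PBS 24 h replicates 2 and 3 it differed by 70.6 and 148. This measure grows with total counts, which differed among the pools and were largest in LPS 24 h replicate 3 (56556752). By correlation of log2 levels, however, replicate 1 was closest to LPS 24 h replicate 3 (0.967). Its correlations with PBS 24 h replicates 1 to 3 were 0.957, 0.949 and 0.945. The 3 genes with the largest fall, described further on, took 7.08% of its counts, against 3.22% and 2.58% in the other LPS pools. The part of these differences in its smaller response was not tested.

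The gap between the groups was often narrow. Among the genes that rose, the lowest LPS pool exceeded the highest PBS pool by a median ratio of 1.62, and in 222 genes (22.9%) by a ratio of 2 or more. All 3 LPS pools were at least 2-fold above the PBS mean in 366 genes (37.7%). Among the genes that fell, the median ratio of the lowest PBS pool to the highest LPS pool was 1.44, and it reached 2 in 3 genes. For the genes that rose, the highest LPS pool was a median of 1.51 times the lowest, and the highest PBS pool 1.29 times the lowest. Genes with little spread are favoured by the test, so these ratios describe the called genes only.

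**Figure D2:**
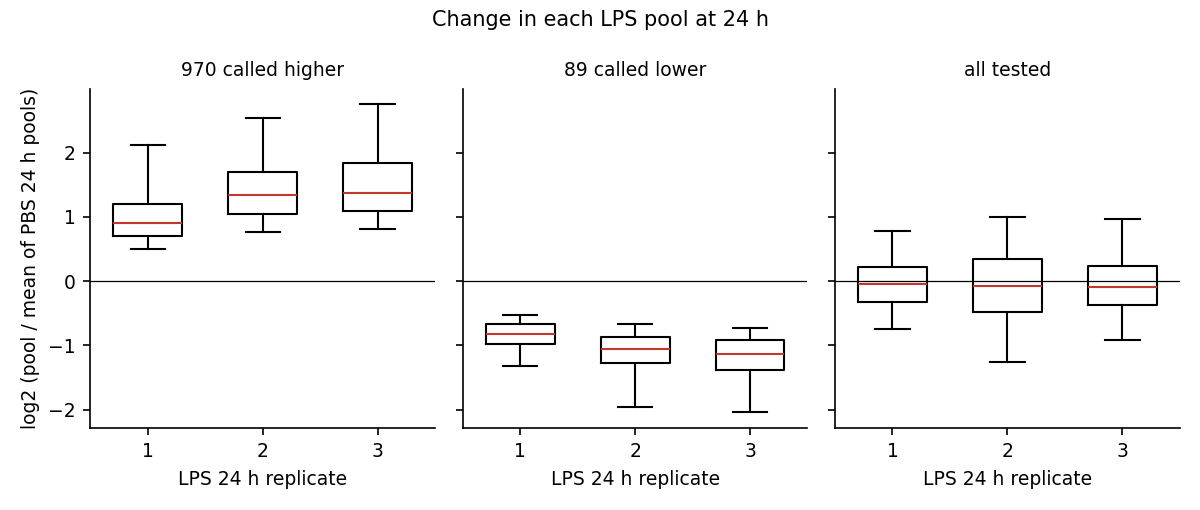
Boxes give the log2 ratio of each LPS 24 h pool to the average PBS 24 h level, for the genes called higher, the genes called lower and all tested genes, with the median (red), the quartiles and whiskers at the 5th and 95th percentiles. Replicate 1 has the smallest median among the genes called higher (0.91) and the genes called lower (-0.83), while the medians over all tested genes lie between -0.09 and -0.05 in the 3 pools.

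Each LPS pool was also scored on genes chosen without it. In the fit without a given LPS pool, the 300 genes with the lowest p among those higher under LPS were taken, and the pool left out was compared with the mean of the PBS pools. The median log2 change was 1.09 in replicate 1, 1.59 in replicate 2 and 1.73 in replicate 3. The pool left out lay above all PBS pools in 300, 297 and 299 of the 300 genes, whereas a single LPS pool lay above all PBS pools in 26.5%, 31.6% and 26.7% of all tested genes. The PBS pools served both to choose and to score, so the 2 steps are not independent.

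Genes chosen in the same way as lower under LPS moved less. The pool left out had a median log2 change of -0.58 in replicate 1, -0.67 in replicate 2 and -0.76 in replicate 3. It lay below all PBS pools in 247, 243 and 265 of the 300 genes, against 25.04%, 36.1% and 31.1% of all tested genes. On the same 3 lists, the mean of the other 2 LPS pools had medians of -1.08, -0.89 and -0.92. The PBS pools were again used in both steps, and no value is at hand for unchanged genes chosen in this way.

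The called genes with the largest gain in CPM were TRINITY_DN2476_c0_g1 and TRINITY_DN13431_c0_g1. TRINITY_DN2476_c0_g1 was at 608, 515 and 825 CPM in the PBS 24 h pools and at 1843, 2181 and 3348 CPM in the LPS 24 h pools. All LPS pools were thus above all PBS pools, with the lowest LPS pool 2.23 times the highest PBS pool. Its mean went from 649 ± 159 to 2457 ± 790 CPM (SD, n = 3 pools each), a log2 fold change of 1.92 (standard error 0.42, edgeR adjusted p = 0.0299).

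At 4 h the order of the groups was different for TRINITY_DN2476_c0_g1. It was at 2714, 1246 and 1568 CPM in PBS 4 h pools and at 589, 1140 and 385 CPM in LPS 4 h pools, so the LPS pools lay below the PBS pools. The log2 fold change at 4 h was -1.39 (edgeR adjusted p = 0.117), and the difference between the effects at 24 h and 4 h did not pass the threshold (0.0998 by the same test and adjustment). Its level under LPS at 24 h overlapped with that of controls at 4 h. Of its 3 isoforms, all were higher under LPS at 24 h, and 1 of them carried 1673 of the 1808 CPM gained.

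TRINITY_DN13431_c0_g1, with a single isoform, was at 526, 244 and 505 CPM in PBS 24 h pools and at 1644, 2064 and 2372 CPM in LPS 24 h pools. The lowest LPS pool was 3.13 times the highest PBS pool. Its mean rose from 425 ± 157 to 2026 ± 366 CPM (SD, n = 3 pools each), a log2 fold change of 2.25 (standard error 0.48, edgeR adjusted p = 0.0256). At 4 h it was at 648 ± 428 CPM under PBS and 539 ± 160 under LPS (SD, n = 3 pools each), with overlapping pools.

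The called genes with the largest loss in CPM changed less than 2-fold. TRINITY_DN3606_c0_g1 was at 550, 631 and 571 CPM in PBS 24 h pools and at 368, 361 and 310 CPM in LPS 24 h pools. The groups did not overlap, which the choice of named genes required. Its mean fell from 584 ± 42.0 to 346 ± 31.8 CPM (SD, n = 3 pools each), a log2 fold change of -0.75 (standard error 0.16, edgeR adjusted p = 0.0253). At 4 h its means were 473 ± 11.7 CPM under PBS and 455 ± 28.6 under LPS (SD, n = 3 pools each).

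TRINITY_DN725_c0_g1 was at 315, 326 and 299.8 CPM in PBS 24 h pools and at 213, 180 and 162 CPM in LPS 24 h pools, again without overlap. Its log2 fold change was -0.76 (standard error 0.16, edgeR adjusted p = 0.0265). Of its 4 isoforms, the mean level of 3 was lower under LPS, going from 156 to 103, from 129 to 61.4 and from 20.9 to 11.8 CPM, and that of the other went from 7.51 to 8.79 CPM. At 4 h its means were 242 ± 18.4 CPM under PBS and 203 ± 13.5 under LPS (SD, n = 3 pools each).

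None of the 4 named calls held in every fit with a pool left out. Without any 1 of the PBS 24 h pools, LPS 24 h replicate 2 or LPS 24 h replicate 3, the edgeR adjusted p was 0.0760 to 0.137 for TRINITY_DN2476_c0_g1, 0.0602 to 0.116 for TRINITY_DN13431_c0_g1, 0.0600 to 0.144 for TRINITY_DN3606_c0_g1 and 0.0723 to 0.154 for TRINITY_DN725_c0_g1. The call of TRINITY_DN3606_c0_g1 also ended without LPS 24 h replicate 1 (0.0561 by the same test and adjustment), and those of TRINITY_DN3606_c0_g1 and TRINITY_DN725_c0_g1 without PBS 4 h replicate 3 (0.0541 and 0.0545).

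**Figure D3:**
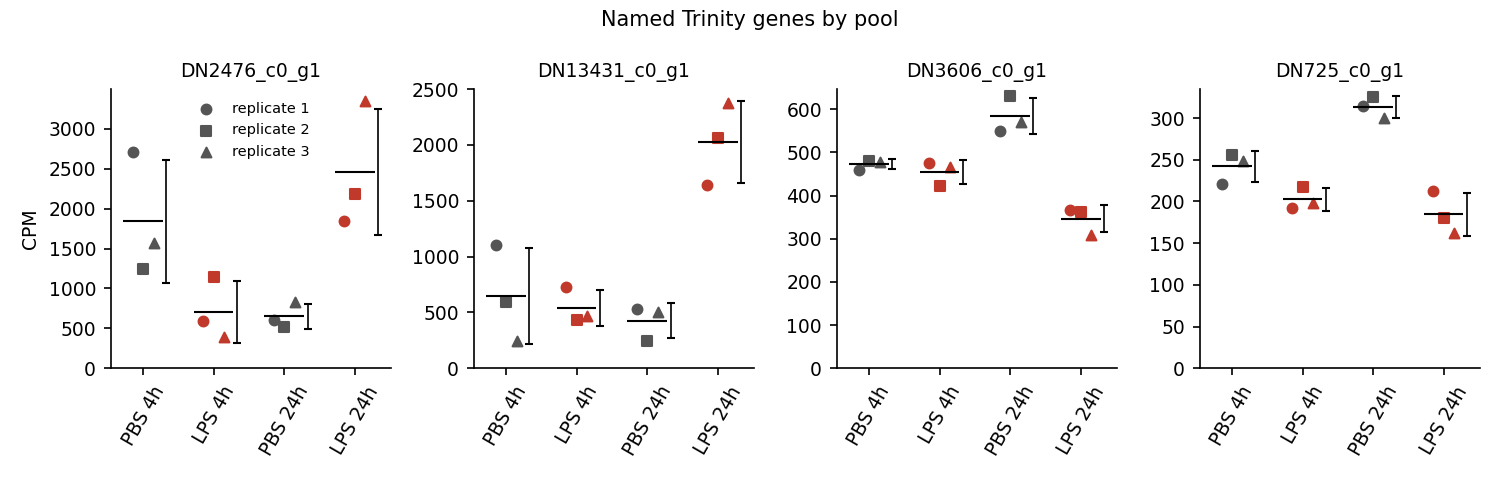
Each panel gives 1 named Trinity gene, with the CPM of every pool by group (red for LPS, grey for PBS, symbols for replicate numbers), the group mean as a line and the SD over 3 pools as a bar. In the 2 genes on the left all LPS 24 h pools lie above all PBS 24 h pools, and in the 2 on the right all lie below, which the choice of these genes required.

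The 53 genes called at least 8-fold higher were mostly low in controls at 24 h. Their median was 0.367 CPM in PBS 24 h pools and 9.20 CPM in LPS 24 h pools, and 11 of them exceeded 100 CPM under LPS. In 47 of the 53 the lowest LPS pool was at least 4 times the highest PBS pool, against 85 of all 32542 tested genes. The class was chosen by its fold change in these same pools, so this gap is partly set by the choice. In PBS 4 h pools the median of the 53 was higher, at 3.81 CPM. In 43 of them (81.1%) all PBS 24 h pools were below all PBS 4 h pools, against 8.88% of all tested genes. In 33 (62.3%) all LPS 24 h pools were above all PBS 4 h pools, against 13.4% of all tested genes. The 24 h pools enter both the choice and these comparisons. LPS 24 h replicate 3 was the highest LPS pool in 31 of the 53, replicate 1 in 14 and replicate 2 in 8. Over all tested genes these counts were 9823, 10457 and 12262.

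The gene with the largest CPM gain in this class was at 73.3, 58.0 and 51.7 CPM in PBS 24 h pools and at 309, 530 and 1349 CPM in LPS 24 h pools (log2 fold change 3.58, standard error 0.56, edgeR adjusted p = 0.00879). The next was at 61.4, 26.4 and 24.8 CPM under PBS and at 472, 649 and 760 CPM under LPS (4.06, standard error 0.65, adjusted p = 0.00942 by the same test). A gene nearly silent in PBS 24 h pools, at 0.512, 0.225 and 0.518 CPM, was at 63.0, 174 and 208 CPM in LPS 24 h pools (8.47, standard error 1.79, adjusted p = 0.0340 by the same test). In each of the 3 genes all LPS pools were above all PBS pools, with replicate 3 the highest and replicate 1 the lowest.

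Many of these strongly raised genes were also high at 4 h in LPS replicates 1 and 3 and not in replicate 2. Both replicates lay above all PBS 4 h pools in 39 of the 53 genes (73.6%), against 24.4% of all tested genes, and replicate 2 joined them in 8 of the 39. In 22 of the 53 both exceeded every LPS 24 h pool, against 9170 of all 32542 tested genes. The nearly silent gene described above was at 2336 and 2548 CPM in LPS 4 h replicates 1 and 3, at 8.03 CPM in replicate 2 and between 10.3 and 54.5 CPM in PBS 4 h pools. Across all 970 genes that rose, by contrast, replicate 2 lay above all PBS 4 h pools in 686 (70.7%), replicate 1 in 397 (40.9%) and replicate 3 in 513 (52.9%). The same shares over all tested genes were 24.1%, 35.03% and 34.6%, so that of replicate 1 was near its background. No test at 4 h is given for these groups of genes, which were chosen at 24 h. Over all tested genes, edgeR called 1 (0.00307%) between LPS and PBS at 4 h.

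The levels of these genes in controls of the other time point are given as a description. Of the 970 genes that rose, 943 (97.2%) averaged less in the controls at 24 h than in those at 4 h, against 46.8% of all tested genes. In 502 of them (51.8%) all PBS 24 h pools were below all PBS 4 h pools, against 8.88% of all tested genes. In 821 (84.6%) all LPS 24 h pools were above all PBS 4 h pools, against 13.4% of all tested genes. The PBS 24 h pools enter both the choice of these genes and the change over time in controls, so the 2 are not independent. The LPS 24 h pools likewise enter both the choice and their comparison with PBS 4 h pools. The 84.6% is therefore partly set by the choice. By edgeR, 5 genes (0.0154%) were called between PBS 24 h and PBS 4 h.

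A direct test of whether the LPS effect differed between 24 h and 4 h called 5 genes (0.0154% of those tested; edgeR adjusted p from 0.0134 to 0.0456), all with a more positive effect at 24 h. All 5 were among the 970 that rose. An unadjusted p below 0.05 was reached by 5664 genes (17.4%). In the 5 genes the log2 fold change was between 1.88 and 3.54 at 24 h and between -1.45 and -0.09 at 4 h. In all 5 the controls were also lower at 24 h than at 4 h, with a log2 change between -2.41 and -1.43. The part of this control change in the difference was not tested. The one with the largest difference was at 87.1, 248 and 237 CPM under LPS at 24 h and at 21.2, 13.8 and 14.2 CPM under PBS. At 4 h it was at 13.1, 25.7 and 9.60 CPM under LPS and at 27.4, 45.6 and 59.1 CPM under PBS. It was thus highest under LPS at 24 h and, among the other groups, lowest on average under LPS at 4 h and PBS at 24 h.

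The count of 5 depended on single pools of both time points. Without LPS 4 h replicate 2 it was 5432 (3196 more positive and 2236 more negative at 24 h). It was 2 without PBS 4 h replicate 2, 3 without LPS 24 h replicate 2, and 1 without LPS 4 h replicate 3 or LPS 24 h replicate 3. It was 0 by edgeR without PBS 4 h replicate 3, PBS 24 h replicate 2, PBS 24 h replicate 3 or LPS 4 h replicate 1, where 4011, 4554, 4210 and 3473 genes reached an unadjusted p below 0.05. DESeq2 called 1042 genes and limma-voom 4.

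Changes in absolute abundance were spread differently for rises and falls. Summed over genes, CPM rose by 162153 in 14419 genes and fell by 151639 in 18122 genes. The 2 sums are not independent, because a larger share of counts for some genes leaves a smaller share for others. They need not be equal, as CPM used TMM-scaled totals. Called genes held 27.8% of the summed rise and 1.23% of the summed fall. It took 319 genes to reach 50% of the summed rise and 19 genes to reach 50% of the summed fall. The 19 include a pair of genes with the same values in every library. Among called genes, 94 gained and 4 lost more than 100 CPM.

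**Figure D4:**
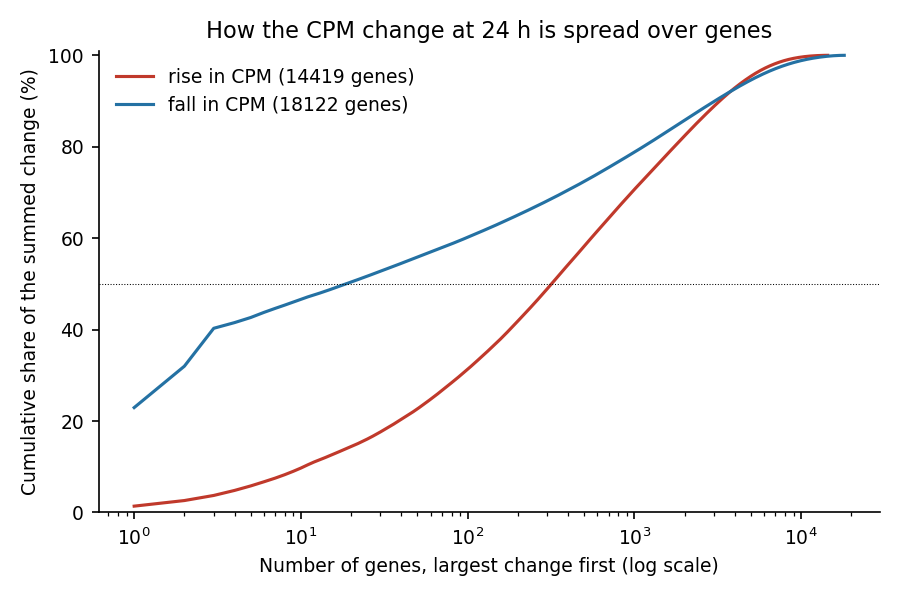
The cumulative share of the summed CPM change (%, vertical axis) is drawn against the number of genes taken from the largest change down (log scale), for rises (red) and falls (blue). The dotted line at 50% is crossed at 319 genes for the rise and at 19 genes for the fall, and 3 genes hold 40.3% of the fall.

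The largest rises in CPM were partly called. Of the 20 genes with the largest rise, 8 were called and 14 had non-overlapping pools, and together they held 14.4% of the summed rise. Over all tested genes, 2.98% were called higher and 14.7% had all LPS pools above all PBS pools. The 20 were picked by their rise between these same pools, so their counts are partly set by the choice. The gene with the largest rise was at 7381, 6802 and 7150 CPM in PBS 24 h pools and at 9208, 10820 and 8001 CPM in LPS 24 h pools. Its groups did not overlap, but its log2 fold change was 0.39 (standard error 0.19, edgeR adjusted p = 0.291). The second largest rise, from 2177 ± 547 to 4163 ± 724 CPM (SD, n = 3 pools each), was close to the threshold (edgeR adjusted p = 0.0548).

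The largest falls were not called at all. None of the 20 genes with the largest fall passed the edgeR threshold (0 calls, with unadjusted p of at least 0.0104), and the groups did not overlap in 4 of them. Over all tested genes, 0.273% were called lower and 11.7% had all LPS pools below all PBS pools. With so small a share called lower, 0 calls among 20 genes is near that background. Ranks 5 and 6 of these falls had the same CPM in each of the 12 libraries, so they may be a single signal. The 3 genes with the largest fall held 40.3% of the summed fall, and 24.1% without PBS 24 h replicate 3. The first of them, the most abundant Trinity gene by counts at 24 h, was at 49657, 28774 and 100453 CPM in PBS 24 h pools and at 40927, 20446 and 13171 CPM in LPS 24 h pools. The groups overlapped, because LPS replicate 1 was above PBS replicate 2, and its log2 fold change was -1.26 (standard error 0.54, edgeR adjusted p = 0.234).

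These 3 genes moved together from pool to pool. The first was between 2.19 and 2.51 times the second and between 2.87 and 3.91 times the third in CPM over all 12 libraries. Together they took 8.15%, 6.06% and 16.6% of the counts under PBS at 24 h, against 7.08%, 3.22% and 2.58% under LPS. The means were 10.3% ± 5.58 and 4.29% ± 2.44 (SD, n = 3 pools each), and the ranges overlapped. The genes were picked by their fall between these same pools, so this is a description and no test of it is given. At 4 h the means stood the other way, at 3.84% ± 2.03 under PBS and 7.05% ± 2.41 under LPS (SD, n = 3 pools each).

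**Figure D5:**
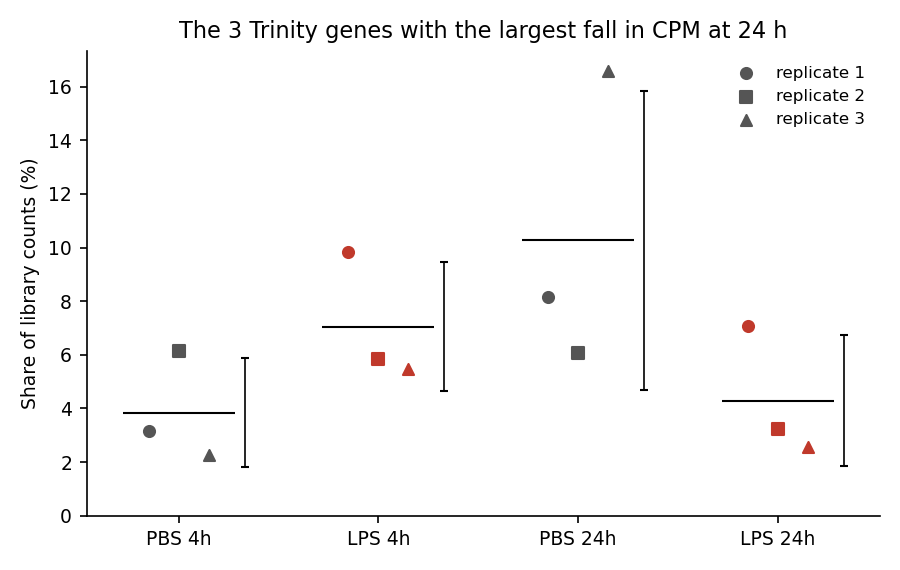
The share of library counts (%) taken by the 3 Trinity genes with the largest fall in CPM at 24 h is shown for every pool by group, with the group mean as a line and the SD over 3 pools as a bar. PBS 24 h replicate 3 is the highest at 16.6%, and LPS 24 h replicate 1 at 7.08% lies above PBS 24 h replicate 2 at 6.06%.

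Calls were spread over Trinity genes with 1 isoform and with several. Of 28183 tested genes with 1 isoform 3.15% were called, and of 4359 with several isoforms 3.95%. Among the 155 genes with several isoforms that rose, 464 of 525 isoforms above 0.1 CPM were higher under LPS, and in 112 genes all of them were. In the 17 such genes that fell, 64 of 70 isoforms were lower, and in 13 genes all of them were. The genes were called on the sum of these isoforms in the same pools, so these counts are largely set by the choice. Within a gene that rose, a single isoform held a median of 93.6% of the summed isoform gains. Within a gene that fell, it held a median of 63.7% of the summed isoform losses. Isoforms that moved the other way were left out of these sums. The split of reads among isoforms is an estimate, so these shares are uncertain.

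Testing transcripts singly gave a shorter list. Calls per transcript came from 727 Trinity genes, of which 675 (92.8% of them, and 63.7% of the 1059) were also called from summed counts. The 2 lists come from the same reads and the same pools.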

How the data were processed

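The authors deposited expected counts (estimated counts per assembled transcript, treated as such because the notes name RSEM), whole numbers in 1 matrix of 58975 transcripts and 12 libraries. Per the submitters' processing notes, Trimmomatic 0.39, FastQC, Bowtie2, RSEM and DESeq2 were used, with no role or order given. Per the labels, libraries were made with a directional kit. How the assembly was made and annotated, and whether counting used strand, is not given in sources used here. Counts were summed per Trinity gene, after removing the isoform number. Near-identical gene copies can share reads, and 38 tested genes had the same 12 counts as another (0 of them called).

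The edgeR 4.0.16 quasi-likelihood test (R 4.3.3, robust, TMM factors 0.799 to 1.19, filterByExpr, which kept 76.6% of genes) was fitted to all 12 libraries with 1 mean per group. P-values were two-sided, adjusted by Benjamini-Hochberg over all 32542 genes and called below 0.05. DESeq2 1.42.0 and limma 3.58.1 were alternatives. Standard errors came from the F statistic. CPM used TMM-scaled totals, and log2 ratios of CPM a pseudocount of 0.5. Total counts ran from 29614365 to 56556752, and their part in the precision, beside the spread between pools, was not tested. Floors cover counting error only, and reads without molecular identifiers are not independent molecules. No 24 h pool was a repeat of another (chi-square per degree of freedom at least 55.4). The fit was also run on simulated counts, and that run is not used as support for the calls.

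Of the called genes whose pools did not overlap, those named are the 2 that gained and the 2 that lost most in mean CPM. The comparison and the lists were chosen with earlier results of these data known, and the labels then gave the member libraries. Genes described without an identifier, and the class of at least 8-fold, were chosen after their values were seen.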

Additional observations from a re-analysis of the deposited data

Results flagged for a closer look

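In 5 Trinity genes the effect of LPS differed by time point (edgeR) and was in each case more positive at 24 h, which is a tested difference between groups. Their log2 differences were between 2.32 and 4.99. In each of these genes the controls were also lower at 24 h than at 4 h (log2 change between -2.41 and -1.43). In groups of 3 pools, samples far from the others were not looked for by rule.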

How the results depend on the processing

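At 24 h, 1059 genes were called. Both other scalings, both filters, limma-voom, the 24 h groups alone and single transcripts stayed within 1.5 times of this. An adjusted p below 0.01 gave 210, DESeq2 2755, a tested 2-fold change 9, and leaving out 1 pool 29 to 2059. The difference between the LPS effects, 5 genes, became 3 with upper-quartile scaling, 3 with CPM above 1 in 3 samples and 1042 with DESeq2. By edgeR it was 0 at an adjusted p below 0.01 (5664 at an unadjusted p below 0.05), 0 per transcript (5877 at an unadjusted p below 0.05) and 0 for a tested 2-fold change (1660 at an unadjusted p below 0.05), and 0 to 5432 with 1 pool left out. The share of calls higher under LPS ran from 75.6% (DESeq2) to 100%. Scaling moved the median log2 fold change of all genes from -0.08 to -0.05 (median-ratio) and -0.13 (upper quartile). The 4 named genes kept their direction in each of the 20 settings in which their summed counts were refitted. They were picked with non-overlapping pools at 24 h, so the kept direction was largely set by the choice. Apart from the stricter thresholds, the causes were not tested. In fits with fewer samples, the number of samples and the pools used changed together, so their parts cannot be told apart. The median standard error was 0.52 in genes below 1 CPM against 0.24 from 100 to 1000 CPM. The part of depth in this was not tested.

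Adding a replicate block by pool number gave 473 calls at 24 h and 0 for the difference (edgeR, 4265 at an unadjusted p below 0.05). It ended the calls of TRINITY_DN2476_c0_g1, TRINITY_DN3606_c0_g1 and TRINITY_DN725_c0_g1 (edgeR adjusted p 0.0800, 0.0859 and 0.0805). The correlation of deviations from group means between pools of the same number at 24 h ran from -0.294 to 0.117, so the numbers were not taken to pair pools.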

Other observations

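Some called genes were almost absent from control spleens at 24 h. In 15 of the 970 genes that rose, no PBS 24 h pool held more than 3 counts, and their means in LPS 24 h pools ran from 0.293 to 9.20 CPM. Their means in PBS 4 h pools ran from 0.0280 to 5.33 CPM. The gene at 5.33 CPM there averaged 3.27 CPM in LPS 24 h pools, with 300, 23 and 23 counts. The share of all tested genes with so few counts in PBS 24 h pools is not given here. The gene with the highest LPS 24 h mean, 9.20 CPM, had 1, 0 and 3 counts in PBS 24 h pools and 366, 223 and 656 counts in LPS 24 h pools. It averaged 1.40 CPM in PBS 4 h pools. The gene with 0 counts in all PBS 24 h pools had 11, 227 and 154 counts in LPS 24 h pools and averaged 3.81 CPM in PBS 4 h pools, so it was not absent from controls at both times. Of the 89 genes that fell, 1 had no more than 3 counts in any LPS 24 h pool, with 7, 12 and 8 counts in PBS 24 h pools.

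A small set of calls held whichever 24 h pool was left out. These were 29 genes (2.74% of the 1059), 28 of them higher under LPS, while 62 calls were lost in all 6 such fits. The fit without PBS 24 h replicate 2 called only these 29, so it alone sets their number. Another 133 genes were called in 5 of the 6 fits. The fits overlap in all but 1 pool.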
